A study of Arabidopsis thaliana with 141 samples.

Results

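The genes described here are 9 Arabidopsis thaliana loci, MKS1 (AT3G18690), SIB1 (AT3G56710), SIB2 (AT2G41180), VQ4 (AT1G28280), VQ10 (AT1G78410), JAV1 (AT3G22160), VQ29 (AT4G37710), VQ33 (AT5G53830) and ASR3 (AT2G33550). They were taken by locus identifier from every count file, and are 9 of the 32005 loci that all files list. The set was named for VQ proteins and other MAP kinase substrates. Of its 9 genes, 8 encode proteins with a VQ core, and ASR3 is a trihelix transcription factor gene with none.

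VQ proteins are small plant proteins named for the valine-glutamine pair at the centre of a short conserved motif. Many of them bind WRKY transcription factors through that motif and change what the WRKY protein does at its target promoters. Several are phosphorylated by the mitogen-activated protein (MAP) kinases MPK3, MPK6 or MPK4, which are switched on within minutes when a receptor at the plant cell surface detects a microbial peptide such as flg22, a fragment of bacterial flagellin. MKS1 is an MPK4 substrate that ties that kinase to WRKY33 and WRKY25. SIB1 and SIB2 bind WRKY33, and SIB1 was first isolated through its binding to a plastid sigma factor. JAV1 restrains jasmonate-dependent defence and is degraded after wounding, VQ4 is one of the VQ proteins phosphorylated by MPK3 and MPK6, VQ10 binds WRKY8, and VQ29 restrains light-dependent seedling development together with the factor PIF1. ASR3 is a repressor phosphorylated by MPK4 that limits flg22-induced genes. What was measured here is the RNA of these genes and not the phosphorylation of their proteins.

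RNA was sequenced in 141 libraries that fall into 49 groups, and in bulk RNA a change in the number of expressing cells cannot be told apart from a change in RNA per cell. The time course held wild-type (WT) seedlings of 7 days given 100 nM flg22 for 5, 10, 15, 30 or 60 min, or water (0 min), with 2 libraries per time. In sets B1 to B4, seedlings of the same age and with 3 libraries per group came from the lines impk36 and impk4 and from WT. With 1 exception, a WT group of B1 that received 0.1% DMSO, these seedlings were first treated for 15 min with 10 uM 3MBiP, a kinase inhibitor. They were then left unstimulated or received 20 uM abscisic acid (ABA), 50 uM methyl jasmonate (MeJA) or 100 nM of the plant peptide pep3 in B1. In B2 they received 2 nM flg22 for 30 min or 1 h, or were wounded with forceps. They were exposed to UVB in B3, at 40 W in the labels, and to 10 mM H2O2 in B4. Stimuli lasted 1 h according to the protocol, and the 30 min of flg22 stands only in group names. RNA of each seedling library came from a pool of 8 seedlings.

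The adult set held shoots of 4-week-old plants, untreated mpk4 plants and impk4 plants sprayed with 100 uM 3MBiP or, as mock, 1% DMSO and harvested 3, 6, 12 or 24 h later. Its other group was impk4 without treatment at 0 h. All plants grew in 12 h light and 12 h dark. The sources used here do not describe how impk36, impk4 or mpk4 were made. B1 to B4 hold no impk36 or impk4 seedlings without 3MBiP, so the line and the inhibition of its kinase cannot be told apart there, and the adult set holds no WT. B3 and B4 hold no unstimulated impk36 or impk4 seedlings. Where nothing in the labels says that libraries of a group came from separate cultures or plants, p-values measure the spread between these libraries only.

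Depth ran from 13.9 M to 40.4 M assigned counts per library (M, counts x 1e06), with a median of 23.5 M. In seedling sets with both lines, MPK6 stood at 277 to 534 CPM (counts per 1e06 assigned counts) in impk36 and 55.3 to 119 CPM in WT, and MPK4 at 1350.1 to 1875 CPM in impk4 and 54.6 to 122 CPM in WT. MPK3 ran from 9.37 to 429 CPM in impk36 and from 34.0 to 981 CPM in WT over all stimuli. Adult mpk4 shoots had 20.8 to 24.9 CPM of MPK4 and adult impk4 shoots 1152 to 1924 CPM. Leaf markers were present in seedlings and shoots, and the flower markers AP3, PI and AG had medians under 1 CPM in both. The root hair markers LRX1, EXPA7 and COBL9 had medians of 0.0, 0.0 and 0.0358 CPM in shoots, but SCR, SHR and GL2 were detected there at 10.6 to 38.7 CPM.

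The VQ cores are shown because they are what the 8 VQ genes share. Each line gives 30 bases of coding sequence, from the phenylalanine codon that opens the core, with the valine and glutamine codons in capitals. The sequences were read from the RefSeq genome TAIR10.1, whose coordinates follow each name.
MKS1, chr3:6430148-6430177, minus strand: ttcatgaacgtaGTCCAGcgactcacaggg
SIB1, chr3:21007308-21007337, minus strand: ttcagagagctcGTTCAAgaactcacaggc
SIB2, chr2:17165404-17165433, plus strand: ttcagagagcttGTTCAAgaactcaccggt
VQ4, chr1:9887168-9887197, minus strand: ttcaaacaagtcGTCCAGatgctaaccgga
VQ10, chr1:29502812-29502841, plus strand: ttcaagaccgttGTTCAAgaactcaccggt
JAV1, chr3:7818472-7818501, minus strand: ttccgtgccatgGTTCAGcaatacactggc
VQ29, chr4:17718429-17718458, plus strand: ttcaaagtgttgGTTCAGaggctaaccggt
VQ33, chr5:21857231-21857260, plus strand: ttcaaacaagtcGTTCAGatgcttaccggc
SIB1 and SIB2 share 27 of these 30 bases, and so do VQ4 and VQ33. VQ10 shares 24 with SIB2 and 21 with SIB1, and the least alike pair, VQ4 and JAV1, shares 13. The same search found a core in 34 of 34 VQ genes looked at, these 8 and a list of 26 others. VQ genes are named for this motif, so that count was fixed beforehand.

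The encoded VQ proteins run from 108 residues in VQ10 to 247 in VQ4, each VQ gene has its coding sequence in 1 exon, and ASR3 encodes 314 residues in 3 coding exons. Serine-proline and threonine-proline pairs, the sequence that MAP kinases phosphorylate, number 12 each in MKS1, VQ4 and VQ33. SIB1 has 4, SIB2 has 3, JAV1 and ASR3 have 2 each, and VQ10 and VQ29 have 1 each. The genes lie at chr3:6429534-6430517 (MKS1), chr3:21006638-21008068 (SIB1), chr2:17165191-17166110 (SIB2), chr1:9885400-9887478 (VQ4) and chr1:29502506-29503938 (VQ10). JAV1 is at chr3:7817779-7818985, VQ29 at chr4:17718118-17718771, VQ33 at chr5:21856948-21858102 and ASR3 at chr2:14209982-14211693. The whole span of SIB2 is covered on the other strand by the long non-coding locus AT2G41178, over 920 bp. MKS1 overlaps 2 loci on the other strand, AT3G18680 by 159 bp and the antisense locus AT3G03745 by 128 bp. The library kit does not mark strand, so reads within such an overlap cannot be told apart by strand.

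WRKY factors bind W-boxes, whose core reads TTGAC, or GTCAA on the other strand. Both were searched in the 250 bases before each gene start. MKS1 and VQ29 hold 3 each, JAV1 and ASR3 1 each, and the windows of VQ10, SIB1, SIB2, VQ4 and VQ33 hold neither spelling. Among 27443 such windows of the annotation, 44.9% hold at least 1 and 3.38% hold at least 3. The windows of MKS1 and VQ29, which hold the most matches, and of VQ10, the member with the largest flg22 response among those with counts at 0 min, are printed with the matches in capitals.
MKS1, chr3:6430518-6430767, minus strand: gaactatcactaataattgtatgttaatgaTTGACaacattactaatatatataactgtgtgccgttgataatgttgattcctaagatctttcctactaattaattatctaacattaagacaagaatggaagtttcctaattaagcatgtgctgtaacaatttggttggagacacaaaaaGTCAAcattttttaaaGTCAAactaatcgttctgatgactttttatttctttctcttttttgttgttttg
VQ29, chr4:17717868-17718117, plus strand: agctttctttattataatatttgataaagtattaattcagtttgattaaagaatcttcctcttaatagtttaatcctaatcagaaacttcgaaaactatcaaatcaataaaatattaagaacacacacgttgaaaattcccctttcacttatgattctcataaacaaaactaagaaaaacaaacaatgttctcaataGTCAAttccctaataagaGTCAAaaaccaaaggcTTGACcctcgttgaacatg
VQ10, chr1:29502256-29502505, plus strand: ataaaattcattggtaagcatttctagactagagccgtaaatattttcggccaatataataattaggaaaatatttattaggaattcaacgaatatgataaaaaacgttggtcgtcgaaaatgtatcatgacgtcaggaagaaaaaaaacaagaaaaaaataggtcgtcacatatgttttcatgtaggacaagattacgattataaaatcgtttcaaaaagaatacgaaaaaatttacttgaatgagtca
In MKS1 the matches begin 220, 70 and 54 bases before the gene start, and in VQ29 they begin 53, 35 and 19 bases before it. These are matches of letters and say nothing about binding.

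Levels were compared per length, in RPKM (CPM per kilobase of exon). Before flg22, VQ4 stood highest at 22.6 RPKM, followed by JAV1 at 9.64, ASR3 at 5.26, MKS1 at 4.83, VQ33 at 3.84 and SIB2 at 3.61 RPKM. SIB1 had 0.520 and VQ10 0.113 RPKM, and VQ29 had no counts. At 60 min VQ4 still led at 69.4 RPKM, but VQ10 had reached 26.7 RPKM, below JAV1 at 33.2 and MKS1 at 42.7. The lowest member was then ASR3 at 4.42 RPKM.

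The flg22 time course asked how fast the members responded to a microbial peptide. By 30 min, 8 of the 9 genes were higher than at 0 min, and ASR3 was not called at any time. The genes were first called at different times. MKS1, SIB1, VQ10 and JAV1 were higher at 10 min, SIB2, VQ4 and VQ33 at 15 min, and VQ29 at 30 min, from few counts. Of the 2 libraries at 15 min, the first had 23.2% of reads not uniquely placed and the second 7.17%. Here and below, a gene is called where its p-value, adjusted over all genes of the comparison, is under 0.05 in edgeR's quasi-likelihood test, and values after ± are standard errors of a log2 fold change.

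**Figure D1:**
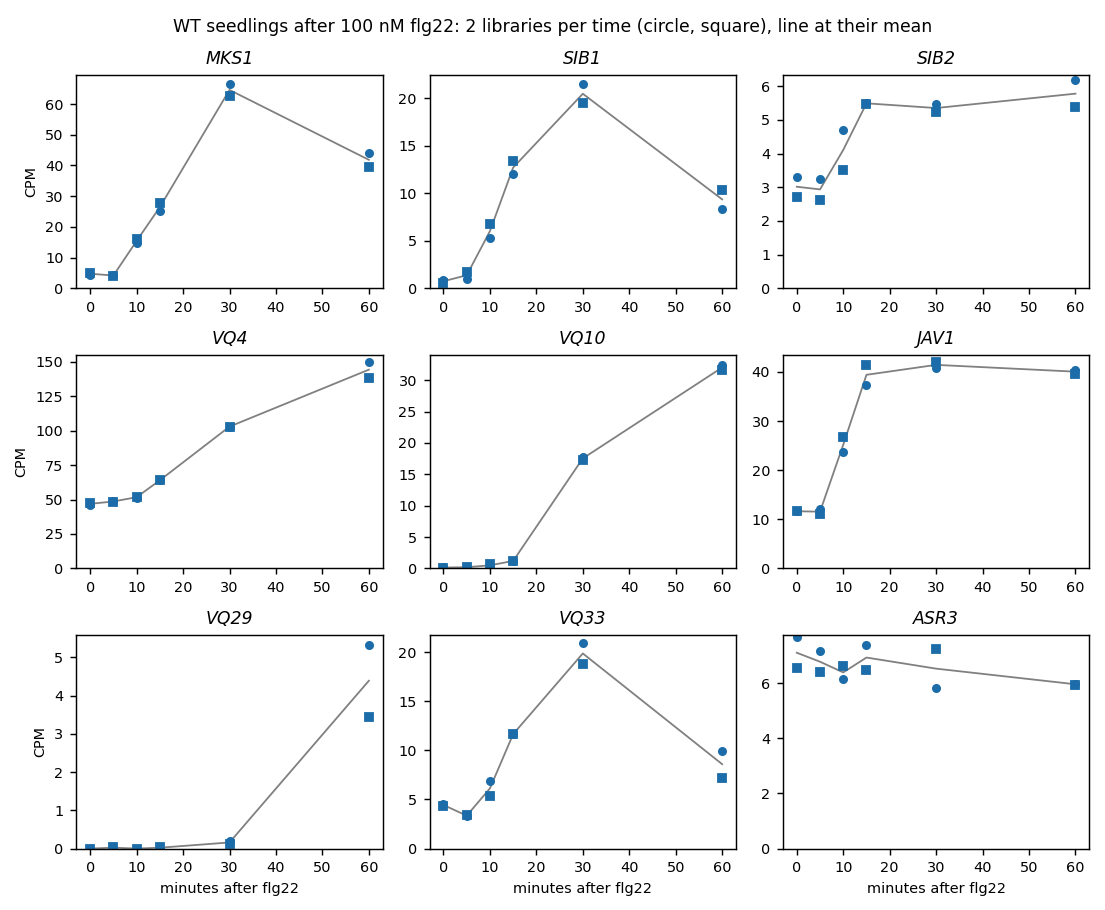
Levels (CPM) of the 9 genes against minutes after 100 nM flg22 in WT seedlings; circles and squares are the 2 libraries of each time, the line joins their means, and each panel has its own linear axis from 0. MKS1, SIB1 and VQ33 peak at 30 min, VQ4 and VQ10 are highest at 60 min, JAV1 stays level from 15 min, VQ29 leaves 0 after 30 min and ASR3 stays between 5.81 and 7.66 CPM.

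No member was called at 5 min, where 0.963% of all genes were. At an unadjusted p under 0.05 there were 2, SIB1 and VQ33, and DESeq2 called 0. At 10 min 4 of 9 were higher and none lower, against 6.32% of all genes higher and 3.45% lower. At 15 min 7 were higher, against 12.6% of all genes, and at 30 and at 60 min 8 were, against 22.1% and 32.7%. None was lower at these times, where 9.25%, 20.5% and 33.6% of all genes were. The median log2 fold change of the 9 members was 2.16 at 30 min and that of all genes -0.03.

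SIB1, the WRKY33-binding protein, moved early and then declined. It had 0.892 and 0.595 CPM at 0 min, 5.31 and 6.72 at 10 min, 21.4 and 19.5 at 30 min, and 8.34 and 10.4 at 60 min. Libraries of each later time shown lay above both at 0 min, and those of 60 min lay below those of 30 min. Its log2 fold change against 0 min was 2.98 ± 0.24 at 10 min (adjusted p = 7.59e-10) and 4.75 ± 0.20 at 30 min (adjusted p = 3.88e-16). Between 60 and 30 min it fell by 1.13 on the log2 scale. VQ33 and MKS1 also peaked at 30 min. MKS1, the MPK4 substrate, had 4.46 and 5.01 CPM at 0 min, 66.5 and 62.7 at 30 min and 44.1 and 39.6 at 60 min, a log2 fold change of 3.77 ± 0.09 at 30 min (adjusted p = 8.40e-22). VQ33 had 4.54 and 4.33 CPM at 0 min, 20.9 and 18.8 at 30 min and 9.97 and 7.22 at 60 min. In the comparison of 60 with 30 min MKS1 fell by 0.63 ± 0.07 and VQ33 by 1.20 ± 0.13. With SIB1 these are the 3 members that were lower, against 29.9% of all genes.

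VQ10, the WRKY8 partner, was nearly silent at the start and still climbing at the end. It had 0.186 and 0.0850 CPM at 0 min, 1.18 and 1.21 at 15 min, 17.7 and 17.4 at 30 min, and 32.5 and 31.6 at 60 min. The log2 fold change was 3.05 ± 0.41 at 15 min, 6.93 ± 0.23 at 30 min and 7.80 ± 0.21 at 60 min (adjusted p = 7.02e-21), the highest of the 8 members with counts at 0 min. That reference rests on few reads. Without the first library of 0 min the values were 2.44, 3.73, 7.61 and 8.48 at 10, 15, 30 and 60 min. The 10 min call, at 1.76 ± 0.50, was lost without the second library of 0 min (1.35, adjusted p = 0.188) or of 10 min (1.27, adjusted p = 0.342), and with DESeq2 (adjusted p = 0.0602).

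VQ4, VQ10 and VQ29 were higher at 60 than at 30 min, where 26.7% of all genes were. VQ4, a substrate of MPK3 and MPK6, was abundant throughout. It had 46.0 and 47.8 CPM at 0 min, 103 and 102.9 at 30 min, and 150.0 and 138.6 at 60 min, and rose by 1.62 ± 0.05 on the log2 scale at 60 min. VQ29 had 0 counts in both libraries at 0 min, 7 counts in all at 30 min and 176 at 60 min, at 5.33 and 3.46 CPM. Taking 3 counts over the group as the most that 0 counts allow, it was at least 73.8-fold higher at 60 min than at 0 min. Its call at 30 min (adjusted p = 0.0199) was lost without the first library of 30 min, or either library of 0 min, with adjusted p of 0.0728 to 0.0947.

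JAV1 and SIB2 levelled off. JAV1, the jasmonate repressor, had 11.6 and 11.6 CPM at 0 min, 23.6 and 26.7 at 10 min, 37.4 and 41.5 at 15 min and 40.4 and 39.6 at 60 min. Its log2 fold change was 1.76 ± 0.08 at 15 min and 1.78 ± 0.08 at 60 min. SIB2 had 3.31 and 2.72 CPM at 0 min and 6.17 and 5.39 at 60 min, a log2 fold change of 0.93 ± 0.17 (adjusted p = 4.27e-05). ASR3, the flg22 gene repressor, had 7.66 and 6.54 CPM at 0 min and 5.97 and 5.95 at 60 min, a log2 fold change of -0.26 ± 0.14 that was not called (adjusted p = 0.118). At 30 min the log2 fold changes of SIB1 and SIB2, which share most of their core, were 4.75 and 0.82, and the difference between the genes was not tested.

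The inhibitor alone was compared in B1. In WT seedlings given 3MBiP, against DMSO, 2 of 9 members were lower and none higher, where 4.03% of all genes were lower and 4.62% higher. JAV1 had 5.31, 5.68 and 4.45 CPM with 3MBiP and 7.98, 7.63 and 6.56 CPM with DMSO, a log2 fold change of -0.53 ± 0.14 (adjusted p = 0.0146). VQ33 fell by 0.43 ± 0.14 (adjusted p = 0.0482). Neither call is firm. JAV1 lost it without DMSO library 1 or 2 or 3MBiP library 3 (log2 fold change -0.50 to -0.42), and VQ33 without any 1 of 5 of the 6 libraries (-0.48 to -0.36).

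The stimuli asked whether the members answer to immune peptides alone or also to hormones, wounding, light and oxidant. In WT, all with 3MBiP, MKS1, SIB1, VQ10 and JAV1 were higher than in unstimulated WT under 7 of 8 stimuli, and VQ4 and VQ33 under 6. ABA was the stimulus under which none of the first 4 was higher. VQ29 was higher under 5 of the 7 stimuli in which it was tested. SIB2 was higher under 1 and lower under 3 of 7, and ASR3 was lower under 4 of 8.

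With pep3, 7 of 9 members were higher and none lower, against 32.2% and 30.4% of all genes. With flg22, 6 were higher and 1 lower at 30 min, against 22.1% and 21.1%, and 7 were higher and 1 lower at 1 h, against 29.8% and 30.6%. Wounding raised 6 and lowered 1, against 28.7% and 24.8% of all genes. Among the 8 members tested after UVB, 6 were higher and 1 lower, against 19.3% and 21.5%. H2O2 raised 7 of 8 and lowered 1, against 21.1% and 18.9%. MeJA raised 6 of 9 and lowered 1, against 16.1% in each direction, and ABA raised 1 and lowered 2, against 16.7% and 13.7%.

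VQ10 stood at 20.6, 19.1 and 19.2 CPM after 1 h of flg22 and at 0.0522, 0.109 and 0.103 CPM in unstimulated WT of B2, a log2 fold change of 7.68 ± 0.23 (adjusted p = 2.20e-26). With pep3 it had 8.36, 7.16 and 6.11 CPM, against 0.0907, 0.150 and 0.0636 CPM unstimulated, a log2 fold change of 6.15 ± 0.37. In both comparisons every stimulated library lay above every unstimulated one. The log2 fold change was 4.41 ± 0.26 with UVB, 3.01 ± 0.48 with wounding and 2.88 ± 0.38 with H2O2, which became 3.70 without unstimulated library 1 of B4. With MeJA it was 1.88 ± 0.56, and this call was lost without library 3 of MeJA (1.45, adjusted p = 0.116) or of unstimulated WT in B1 (1.58, adjusted p = 0.0637).

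SIB1 rose most in fitted value with UVB, flg22 and H2O2. With UVB it had 29.6, 24.3 and 26.4 CPM, against 0.834, 0.766 and 1.18 CPM without UVB, a log2 fold change of 4.88 ± 0.16 (adjusted p = 1.81e-11). With 30 min of flg22 the value was 4.77 ± 0.18, with H2O2 4.65 ± 0.15 and with pep3 3.66 ± 0.22. As in the time course it was lower later, with a log2 fold change of 2.84 ± 0.21 after 1 h of flg22. MKS1 gave 3.51 ± 0.18 and 2.85 ± 0.19 for these times of flg22, 2.75 ± 0.14 with H2O2, 1.69 ± 0.14 with UVB and 1.62 ± 0.16 with pep3. The MeJA calls of both genes depended on single libraries. SIB1, at 0.87 ± 0.27, lost it without MeJA library 3 (0.61) or unstimulated library 3 (0.57), and MKS1, at 0.56 ± 0.17, without MeJA library 2 (0.38).

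JAV1 rose by 1.64 to 2.87 on the log2 scale under 7 stimuli. With MeJA it had 24.1, 25.2 and 16.3 CPM, against 5.31, 5.68 and 4.45 CPM unstimulated, a log2 fold change of 2.09 ± 0.13 (adjusted p = 1.62e-15). With wounding it had 27.7, 25.0 and 24.5 CPM, against 5.38, 5.74 and 6.38 CPM, a log2 fold change of 2.12 ± 0.11. No stimulated library overlapped an unstimulated one in either comparison. With ABA it was lower, by 0.59 ± 0.16, a call lost without ABA library 1 (-0.46, adjusted p = 0.0523).

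VQ29 had 0 counts in unstimulated WT of B1, B2 and B4. It had 258 counts over the 3 wounded libraries, at 3.49, 4.65 and 4.17 CPM, and was at least 91.1-fold higher than without wounding. It was at least 81.05-fold higher with MeJA, at least 74.95-fold with H2O2, at least 45.8-fold with pep3 and at least 28.7-fold after 1 h of flg22. At 30 min of flg22 it had 12 counts against 0 and was not called (adjusted p = 0.0673), though DESeq2 did call it (adjusted p = 0.00147). With UVB it had 28 counts, against 3 without, too few for the test.

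SIB2 was higher with MeJA and lower with flg22 and wounding. With MeJA it had 42.3, 43.6 and 42.5 CPM, against 13.0, 10.9 and 9.73 CPM, a log2 fold change of 1.94 ± 0.12 (adjusted p = 2.33e-15). After 1 h of 2 nM flg22 it had 4.91, 4.31 and 4.34 CPM, against 12.1, 10.5 and 10.4 CPM, a log2 fold change of -1.29 ± 0.13 (adjusted p = 4.38e-11). It fell by 0.79 ± 0.12 with wounding, and by 0.40 ± 0.12 at 30 min of flg22, a call lost without library 3 of that group (-0.26). In the time course, with 100 nM flg22 and no inhibitor, SIB2 rose, but its unstimulated level there was 3.31 and 2.72 CPM. Dose, inhibitor and set differ between the 2 experiments, and they were not tested against each other. SIB2 was listed at 0 in all 42 libraries of B4 and the adult set, whose files list more loci, so it is not tested there. The locus on its other strand had at most 15 counts in any of those libraries. Reads ambiguous between loci made up 2.92 to 3.16% in B4 and 3.05 to 4.09% in the adult set. In the other sets they made up 0.908 to 1.76%, and their part in the 0 of SIB2 was not tested.

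VQ4 was higher under 6 stimuli, by 0.48 ± 0.08 with wounding to 1.72 ± 0.08 with pep3. With pep3 it had 140.3, 142.7 and 132.5 CPM, against 45.3, 43.4 and 38.1 CPM. VQ33 was higher by 0.41 with ABA to 2.01 ± 0.12 with flg22 at 30 min. Its ABA call was lost without ABA library 1 (0.27) or unstimulated library 2 (0.41) or 3 (0.34). ASR3, the repressor, was lower with MeJA, at 4.33, 2.76 and 3.98 CPM against 6.67, 7.83 and 6.36 CPM, a log2 fold change of -0.89 ± 0.15 (adjusted p = 8.50e-06). It was lower by 0.78 ± 0.15 with ABA. Its calls with UVB (-0.41 ± 0.14) and H2O2 (-0.31 ± 0.12) were lost without any 1 of 4 and of 5 libraries (-0.43 to -0.32 and -0.33 to -0.27), and the H2O2 call with DESeq2 (adjusted p = 0.0726) and RLE scaling (adjusted p = 0.0539) too.

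**Figure D2:**
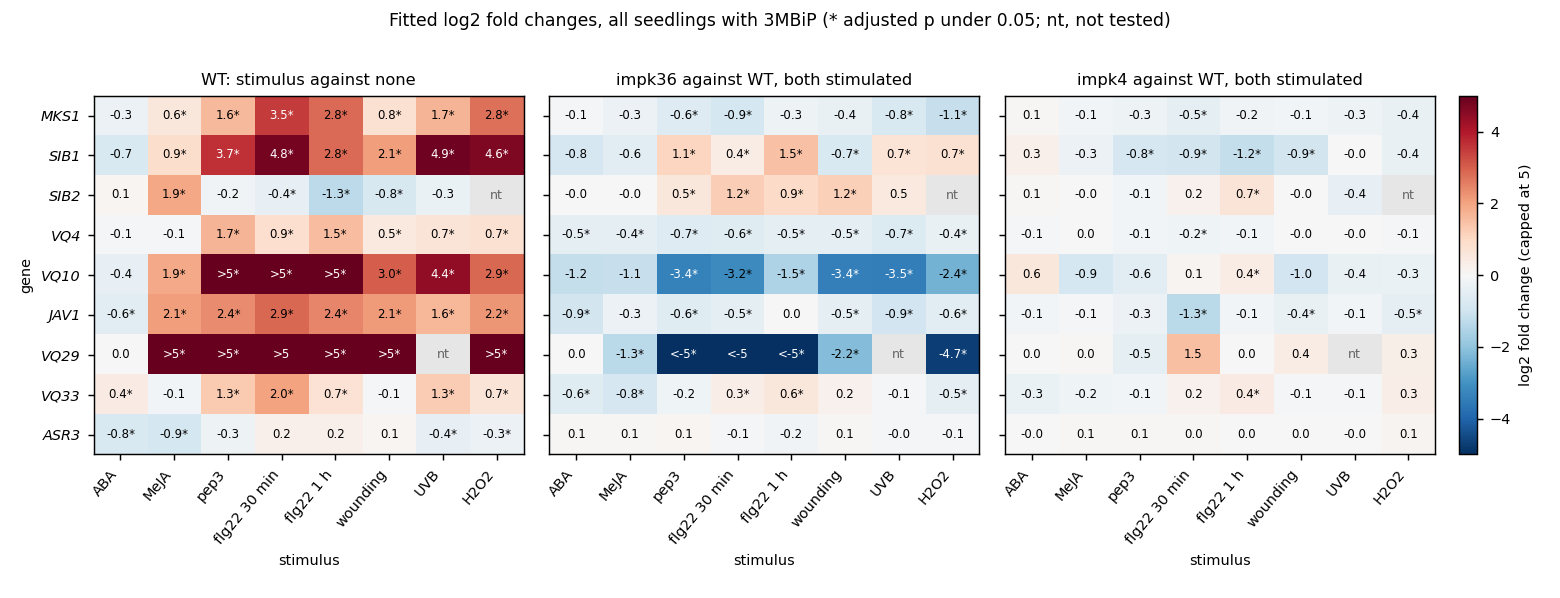
Fitted log2 fold changes of the 9 genes under 8 stimuli: stimulated against unstimulated WT (left), impk36 against WT with the same stimulus (middle) and impk4 against WT (right), all with 3MBiP. Colours are capped at 5 in size, asterisks mark an adjusted p under 0.05 and nt marks genes not tested; VQ4 and VQ10 are lower in impk36 in every column that carries an asterisk for them, and SIB1 is higher in 5 columns of the middle panel and lower in 4 of the right one.

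The comparison of impk36 with WT, both with 3MBiP, was made for each stimulus. VQ4 was lower in impk36 than in WT under 8 of 8 stimuli, VQ10 and JAV1 under 6, VQ29 under 5 of the 7 tested, and MKS1 under 4. SIB1 went the other way and was higher under 5 and lower under 1, with wounding. SIB2 was higher under 4 of 7, VQ33 was higher under 2 and lower under 3, and ASR3 was not called under any of the 8.

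Without a stimulus, 3 of 9 members were lower in impk36 than in WT in B1 and none was higher, against 2.41% and 1.15% of all genes. These were VQ4 (-0.43 ± 0.08), JAV1 (-0.73 ± 0.16) and VQ33 (-0.52 ± 0.15), the last lost without any 1 of 4 libraries (-0.53 to -0.42). In B2, 2 were lower and 1 higher, against 16.6% and 14.7%. VQ4 was again lower, at -0.30 ± 0.08, and JAV1 at -0.85 ± 0.14, with 2.93, 3.49 and 3.37 CPM in impk36 and 5.38, 5.74 and 6.38 CPM in WT. SIB2 was higher in impk36 in B2 (0.55 ± 0.11) but not called in B1, where its value was -0.40 ± 0.13 (adjusted p = 0.0982). VQ10 was not called before a stimulus in either set.

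The counts under each stimulus were as follows. With pep3, 2 of 9 members were higher and 5 lower in impk36, against 16.2% and 17.9% of all genes. With flg22 3 were higher and 4 lower at 30 min, against 17.2% and 18.8%, and 3 were higher and 3 lower at 1 h, against 24.6% and 22.5%. Wounding gave 1 higher and 5 lower, against 18.9% and 22.4%. With UVB 1 of 8 was higher and 4 were lower, against 3.63% and 6.1%, and with H2O2 1 of 8 was higher and 6 were lower, against 3.01% and 8.02%. With ABA and with MeJA 3 of 9 were lower and none higher, against 2.63% and 1.3% of all genes lower and 1.35% and 0.504% higher.

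VQ10 was lower in impk36 under all stimuli but the hormones ABA and MeJA. With pep3 it had 0.350, 1.05 and 0.656 CPM in impk36 and 8.36, 7.16 and 6.11 CPM in WT, a log2 fold change of -3.39 ± 0.28 (adjusted p = 8.02e-12). After 30 min of flg22 it had 2.55, 2.14 and 1.64 CPM in impk36 and 19.4, 18.8 and 18.8 CPM in WT, a log2 fold change of -3.17 ± 0.14 (adjusted p = 2.76e-20). After 1 h of flg22 it had 5.65, 6.84 and 7.24 CPM in impk36 and 20.6, 19.1 and 19.2 CPM in WT, a log2 fold change of -1.55 ± 0.11. In each of these the groups do not overlap. With UVB the value was -3.47 ± 0.24, with H2O2 -2.37 ± 0.37 and with wounding -3.41 ± 0.52, which became -4.32 without wounded impk36 library 3. With ABA (-1.19 ± 1.05) and MeJA (-1.14 ± 0.52) VQ10 stayed under 0.5 CPM in both lines and not called.

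VQ29 was lower in impk36 under 5 stimuli. With pep3 it had 1 count over 3 impk36 libraries, in library 2, and 129 over 3 WT libraries. After 1 h of flg22 it had 0 counts in impk36 and 86 in WT, and was at least 23.3-fold lower in impk36. With H2O2 it had 0, 0.196 and 0.0316 CPM in impk36 and 2.27, 1.95 and 1.71 CPM in WT, a log2 fold change of -4.70 ± 0.47 (adjusted p = 5.42e-06), which ran from -6.71 to -4.09 as impk36 library 2 or 1 was left out. With wounding it kept part of its level, at 0.932, 0.814 and 0.938 CPM in impk36 and 3.49, 4.65 and 4.17 CPM in WT (-2.18 ± 0.44). With MeJA the value was -1.33 ± 0.31, and that call was lost without any 1 of 5 of the 6 libraries (-1.45 to -1.06).

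SIB1 was higher in impk36 after peptides, UVB and H2O2. With pep3 it had 15.7, 18.1 and 19.7 CPM in impk36 and 8.91, 8.03 and 8.78 CPM in WT, a log2 fold change of 1.06 ± 0.16 (adjusted p = 2.18e-06). After 1 h of flg22 it had 13.6, 13.2 and 12.6 CPM in impk36 and 5.93, 4.58 and 3.93 CPM in WT, a log2 fold change of 1.48 ± 0.13 (adjusted p = 6.06e-12). The groups do not overlap in either. At 30 min of flg22 the value was 0.36 ± 0.10, with UVB 0.69 ± 0.10 and with H2O2 0.74 ± 0.09. With wounding it was lower in impk36, at 1.27, 1.90 and 1.71 CPM against 2.39, 3.45 and 2.50 CPM in WT (-0.75 ± 0.20). SIB2 was higher with pep3 (0.55 ± 0.13), with flg22 at 30 min (1.22 ± 0.11) and 1 h (0.94 ± 0.14), and with wounding (1.17 ± 0.12). In B2, which held the flg22 and wounding groups, SIB2 was higher in impk36 without a stimulus too.

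MKS1 was lower in impk36 with H2O2, at 8.41, 10.4 and 8.06 CPM against 21.0, 22.0 and 16.2 CPM in WT, a log2 fold change of -1.14 ± 0.12 (adjusted p = 6.54e-06). It was lower by 0.88 ± 0.14 with flg22 at 30 min, 0.76 ± 0.13 with UVB and 0.63 ± 0.16 with pep3. At 1 h of flg22 its value was -0.27 ± 0.15 and was not called (adjusted p = 0.142); with replicate number as a block it was (adjusted p = 0.0433). JAV1 was lower by 0.94 ± 0.08 with UVB, and VQ4 by 0.68 ± 0.08 with UVB and 0.66 ± 0.08 with pep3. With pep3 VQ4 had 89.3, 86.0 and 86.9 CPM in impk36 and 140.3, 142.7 and 132.5 CPM in WT. VQ33 was higher in impk36 at 30 min (0.32 ± 0.10) and 1 h (0.58 ± 0.12) of flg22, but lower with ABA (-0.61 ± 0.14), MeJA (-0.85 ± 0.16) and H2O2 (-0.50 ± 0.12). The 30 min, ABA and H2O2 calls of VQ33 were not firm. That at 30 min was lost without WT library 2 (0.25), that with ABA without WT library 1 (-0.47) or impk36 library 2 (-0.52), and that with H2O2 without WT library 1 (-0.41).

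All 12 impk36 libraries of B2 had 13.4 to 16.5% of reads that were not uniquely placed, against 6.06 to 12.8% in the WT and impk4 libraries of that set, and the part of this in the B2 values was not tested. In B3 with UVB the share was 10.2 to 11.7% in impk36, and in WT it had a median of 10.2% and a maximum of 11.4%. In unstimulated WT of B3 it began at 6.69%, and each of these libraries lay below every WT library with UVB. The part of this difference in the UVB responses of WT was not tested. In 1 impk36 library of pep3 the share was 42.4%. Without it 7 members were still called, with VQ10 at -3.36 and SIB1 at 0.98.

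**Figure D3:**
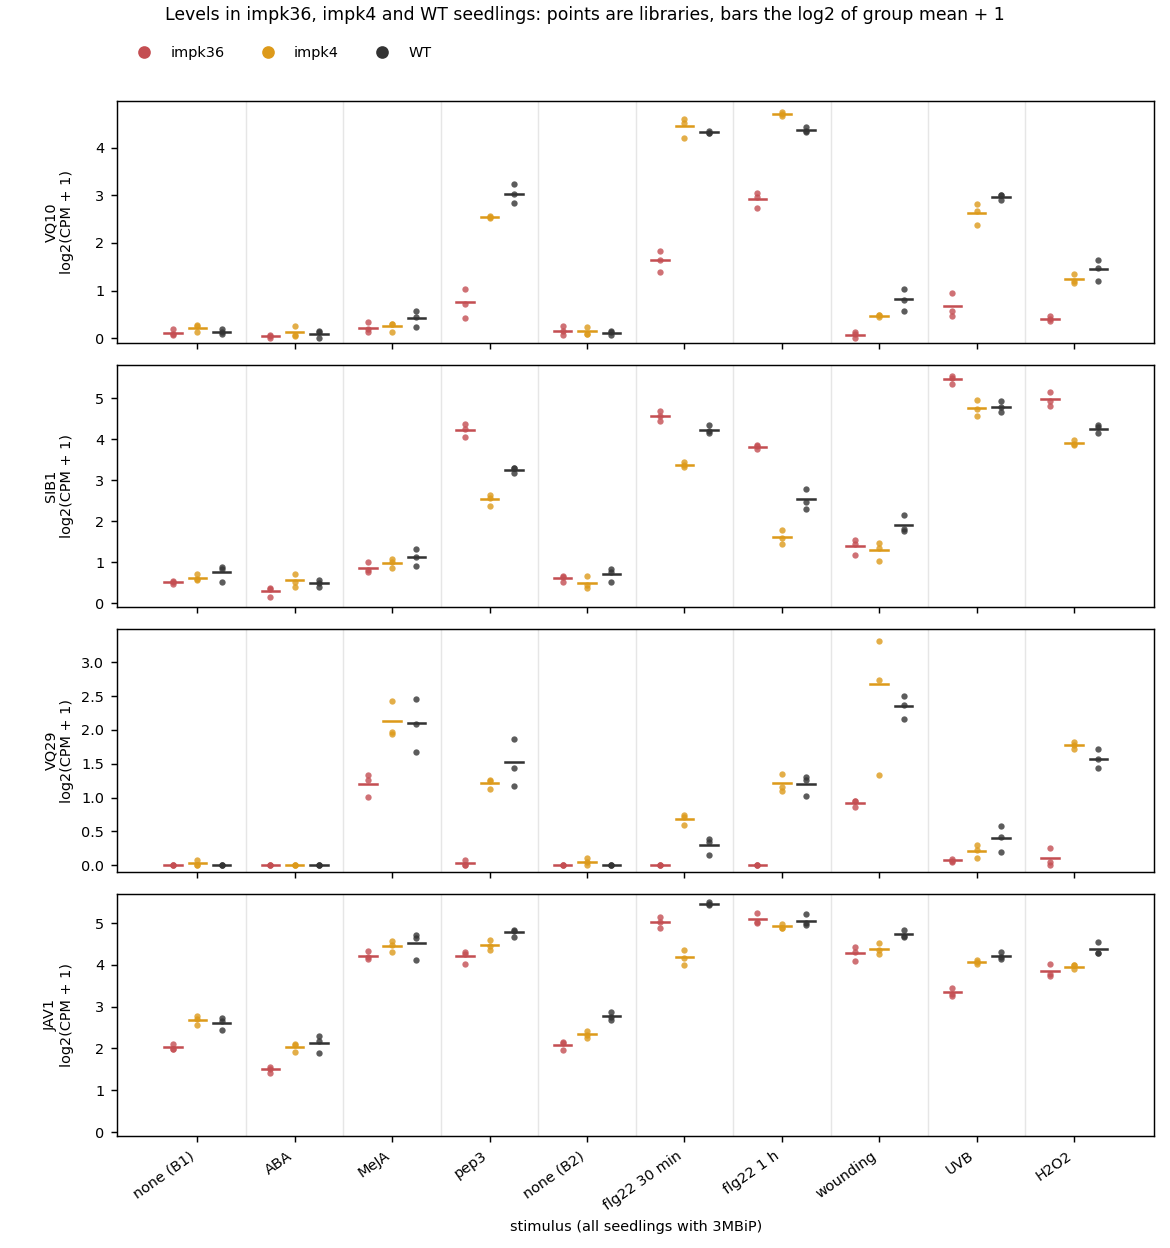
Levels of VQ10, SIB1, VQ29 and JAV1 as log2(CPM + 1) in impk36, impk4 and WT seedlings, all with 3MBiP, under 10 conditions of sets B1 to B4; points are single libraries and short lines are log2(CPM + 1) of the mean of 3. VQ10 and VQ29 points of impk36 sit below those of impk4 and WT with pep3, flg22 at 1 h and H2O2, SIB1 points of impk36 sit above with pep3, and JAV1 points of impk4 sit below the others at 30 min of flg22.

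In impk4, SIB1 was lower than in WT under 4 of 8 stimuli, JAV1 under 3, and MKS1 and VQ4 under 1 each. VQ10, SIB2 and VQ33 were higher under 1 each, after 1 h of flg22. VQ29 and ASR3 were not called under any stimulus tested. Without a stimulus none of 9 was called in B1, where 0.0801% of all genes were, with 0 at an unadjusted p under 0.05 and 0 by DESeq2. In B2 JAV1 alone was lower (-0.54 ± 0.13), against 8.24% of all genes lower and 8.38% higher, and that call was lost without WT library 3 (-0.44, adjusted p = 0.0597).

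At 30 min of flg22, 4 of 9 members were lower in impk4 and none higher, against 13.2% and 12.3% of all genes. JAV1 had 15.1, 19.4 and 17.0 CPM in impk4 and 44.2, 42.5 and 42.6 CPM in WT, a log2 fold change of -1.33 ± 0.09 (adjusted p = 6.03e-15). At 1 h it had 28.4, 30.8 and 28.7 CPM in impk4 and 36.01, 29.97 and 31.1 CPM in WT and was not called (-0.14 ± 0.09). SIB1 had 9.03, 9.29 and 9.89 CPM in impk4 at 30 min and 19.3, 16.8 and 17.4 CPM in WT, a log2 fold change of -0.92 ± 0.11. Neither gene's libraries overlap between the lines at 30 min. MKS1 (-0.45 ± 0.14) and VQ4 (-0.20 ± 0.07) were the other 2, their libraries overlap, and their calls were lost without any 1 of 3 and of 4 libraries (-0.42 to -0.29 and -0.22 to -0.12).

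At 1 h of flg22, 3 members were higher and 1 lower in impk4, against 19.2% and 18.9% of all genes. SIB1 was lower, at 2.46, 1.72 and 2.04 CPM in impk4 against 5.93, 4.58 and 3.93 CPM in WT (-1.17 ± 0.17, adjusted p = 1.34e-06). SIB2 was higher by 0.65 ± 0.14, VQ10 by 0.35 ± 0.10 and VQ33 by 0.42 ± 0.12, the last lost without WT library 3 (0.32, adjusted p = 0.0620). With pep3 SIB1 was the 1 member lower and none was higher, against 4.23% and 1.5% of all genes. It had 5.21, 4.98 and 4.18 CPM in impk4 and 8.91, 8.03 and 8.78 CPM in WT, a log2 fold change of -0.85 ± 0.17.

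With wounding 2 members were lower in impk4 and none higher, against 1.65% and 0.759% of all genes. Neither was called in a fit of only the groups compared (SIB1 adjusted p = 0.0736, JAV1 adjusted p = 0.0548). SIB1 (-0.91 ± 0.20) lost its call without library 2 of WT or of impk4 (-0.75 each), and JAV1 (-0.37 ± 0.09) without WT library 1 or impk4 library 2 or 3 (-0.36 to -0.31). With H2O2 JAV1 was lower (-0.45 ± 0.10) and no member was higher, against 0.822% and 0.367% of all genes, a call lost without any 1 of 4 libraries (-0.51 to -0.35). With ABA, MeJA and UVB no member was called, against 0.259%, 0.113% and 0.696% of all genes. At an unadjusted p under 0.05 there were 1 (VQ33), 0 and 2 (SIB2 and VQ10), and DESeq2 called 0 in each.

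The direct comparison of impk36 with impk4 tests whether the lines differ. SIB1 was higher in impk36 than in impk4 by 1.90 ± 0.17 with pep3, 1.28 ± 0.11 at 30 min and 2.66 ± 0.15 at 1 h of flg22, 0.71 ± 0.10 with UVB and 1.12 ± 0.10 with H2O2. VQ10 was lower in impk36 by 2.81 ± 0.29 with pep3, 3.31 ± 0.13 and 1.90 ± 0.11 at the times of flg22, 2.44 ± 0.61 with wounding, 3.08 ± 0.24 with UVB and 2.03 ± 0.38 with H2O2. Without wounded impk36 library 3 the wounding value was -3.35. VQ4 was lower in impk36 than in impk4 in all 8 comparisons, by 0.29 ± 0.05 with H2O2 to 0.66 ± 0.08 with UVB. JAV1 was higher in impk36 at 30 min of flg22, at 31.4, 34.3 and 28.7 CPM against 15.1, 19.4 and 17.0 CPM in impk4 (0.87 ± 0.09, adjusted p = 3.64e-10). VQ29 was at least 12.6-fold lower in impk36 at 30 min and at least 23.6-fold lower at 1 h of flg22.

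The counts in this comparison were 2 higher and 3 lower of 9 with pep3, against 14.6% and 14.7% of all genes. With flg22 they were 3 and 4 at 30 min, against 10.2% and 12%, and 1 and 3 at 1 h, against 16.1% and 15.2%. Wounding gave 1 and 3, against 19.6% and 21.5%. UVB gave 2 and 4 of 8, against 1.8% and 4.07%, and H2O2 1 and 5 of 8, against 2.62% and 6.86%. With ABA and MeJA 2 and 3 of 9 were lower, against 1.86% and 1.87%, and none was higher, against 0.882% and 0.839%. Among the lower ones the MeJA calls of VQ29 (-1.38) and VQ33 (-0.63), the ABA call of JAV1 (-0.76) and the MKS1 calls at 30 min of flg22 (-0.43) and with UVB (-0.50) were each lost without single libraries, ranging over -1.21 to -1.15, -0.66 to -0.50, -0.73 to -0.69, -0.43 to -0.34 and -0.55 to -0.44.

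Whether the response to a stimulus itself differed from that of WT was tested as an interaction, for 6 stimuli in each line. More and less give the sign of the line's log2 response minus that of WT. SIB2 fell in WT at 30 min of flg22 and with wounding, so its positive differences there are not larger responses. The fitted SIB1 level without a stimulus was lower in impk36 than in WT, though not called, and this enters its differences. In impk36, SIB1 responded more than in WT to pep3 and to 1 h of flg22, and VQ10 responded less to pep3, to 30 min of flg22 and to wounding. With pep3 2 members responded more and 1 less, against 7.66% and 8.48% of all genes, and at 30 min of flg22 1 responded more and 2 less, against 2.45% and 4.14%. At 1 h of flg22 3 responded more and none less, against 8.27% and 6.86%. With wounding 1 responded more and 1 less, against 1.68% and 3.76%. In impk4 JAV1 responded less at 30 min of flg22 and no member responded more, against 2.23% and 0.98% of all genes. For ABA no member was called in either line, where 0% of all genes were. For MeJA none was in impk36 or impk4, against 0.0141% and 0.00471%, and in impk4 none was for pep3, 1 h of flg22 or wounding, against 0.702%, 10.5% and 8.01%. At an unadjusted p under 0.05 edgeR gave 0 for ABA in each line, 2 and 1 for MeJA in impk36 and impk4, and 1, 2 and 0 in impk4 for the last 3, and DESeq2 called 0 in these 7.

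In adult shoots the sprayed inhibitor was compared with mock at each time. No member of the 7 tested was called with 3MBiP against mock at 3, 6 or 12 h, where 0.279%, 6.08% and 14.2% of all genes were. At an unadjusted p under 0.05 there were 0, 1 (MKS1) and 1 (VQ33), and DESeq2 called 0 at each time. A fit of only the groups compared called 2 at 6 h, MKS1 (0.44, adjusted p = 0.0473) and SIB1 (0.52, adjusted p = 0.0282). At 24 h 3 were higher and none lower, against 13.7% and 11.5% of all genes. SIB1 had 31.3, 21.3 and 33.7 CPM with 3MBiP and 9.30, 6.42 and 2.97 CPM with mock, a log2 fold change of 2.20 ± 0.31 (adjusted p = 1.79e-05). MKS1 had 4.79, 3.84 and 5.81 CPM with 3MBiP and 2.59, 2.75 and 2.23 CPM with mock, a log2 fold change of 0.93 ± 0.18 (adjusted p = 4.40e-04). VQ10 had 1.15, 0.854 and 1.76 CPM with 3MBiP and 0.423, 0.444 and 0.212 CPM with mock (1.77 ± 0.48), a call lost without 3MBiP library 3 (1.45, adjusted p = 0.0579). The mock libraries of 24 h were uneven. In units of sampling variance, library 1 differed from libraries 2 and 3 by a mean squared difference per gene of 57.5 and 73.8. The median over all pairs of replicates was 6.66. Leaving out 1 library gave 2 to 4 members called at 24 h. EHD1, a check gene that is low in impk4 seedlings, had 6.66 to 8.57 CPM with 3MBiP at 24 h and 1.82 to 2.06 CPM with mock. At 12 h it had 6.52 to 8.34 CPM with 3MBiP and 1.15 to 1.84 CPM with mock, and in mpk4 56.7 to 59.4 CPM. Whether this difference between the libraries has a part in the values of the members was not tested. JAV1 was not called at 24 h (0.44 ± 0.40), and without mock library 1 it was (1.26, adjusted p = 0.0223).

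The mock plants themselves moved over the series. All 7 members tested changed over 0, 3, 6, 12 and 24 h of the mock series in an F test, as did 84.5% of all genes. SIB1 had 41.6, 60.9 and 36.3 CPM at 0 h, 5.74, 10.9 and 7.66 at 3 h, 25.4, 32.8 and 35.4 at 6 h, and 9.30, 6.42 and 2.97 at 24 h. ASR3 had 19.6, 24.4 and 25.5 CPM at 0 h and 8.06, 8.22 and 6.20 CPM at 6 h. From 3 to 24 h, time of day and time since spraying change together and cannot be told apart. By their labels 0 h and 24 h share an hour of the day, but the 0 h plants were untreated and the 24 h plants sprayed with DMSO.

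**Figure D4:**
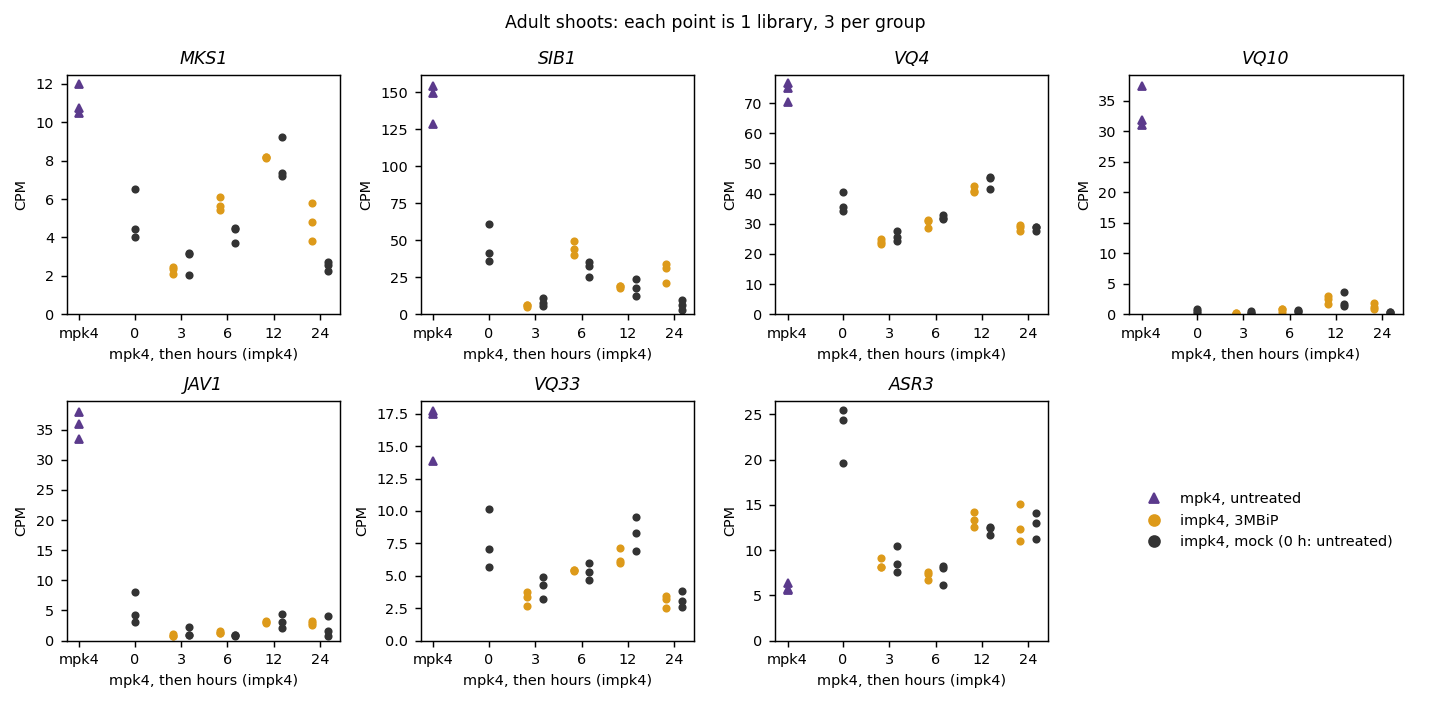
Levels of 7 genes in shoots of 4-week-old plants, as CPM on linear axes from 0; triangles at the left are untreated mpk4 plants, and at each time impk4 with 3MBiP stands left of impk4 mock, with 1 point per library and 0 h untreated. The mpk4 points of VQ10 and JAV1 lie above every impk4 point, SIB1 separates by treatment at 24 h, and ASR3 is lowest in mpk4 and at 6 h. SIB2, listed at 0, and VQ29, with 6 counts at most in a library, are not drawn.

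In mpk4 shoots 6 of the 7 members tested were higher than in untreated impk4 and 1 was lower, where 45.5% of all genes were higher and 32.7% lower. VQ10 had 37.4, 31.9 and 30.9 CPM in mpk4 and 0.458, 0.779 and 0.246 CPM in impk4, a log2 fold change of 6.07 ± 0.37 (adjusted p = 8.24e-14). JAV1 had 33.5, 35.99 and 37.9 CPM in mpk4 and 3.00, 8.00 and 4.29 CPM in impk4, a log2 fold change of 2.81 ± 0.33. SIB1 had 149.6, 154.4 and 128.3 CPM in mpk4 and 41.6, 60.9 and 36.3 CPM in impk4 (1.64 ± 0.27). No library of mpk4 overlapped one of impk4 in these. MKS1 was higher by 1.15 ± 0.16, VQ33 by 1.102 ± 0.18 and VQ4 by 1.01 ± 0.06. ASR3 was the member that was lower, at 5.75, 5.59 and 6.37 CPM in mpk4 and 19.6, 24.4 and 25.5 CPM in impk4 (-1.97 ± 0.13, adjusted p = 1.84e-13). The median log2 fold change of all genes was 0.19 here and that of the 7 members 1.15.

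The labels do not give the hour at which mpk4 was harvested, so it was also set against each later mock time, a choice made after seeing the mock series. All 7 kept their call and direction in each. Of the 20806 genes tested, 7646, 7621, 7411 and 8377 were higher in mpk4 than in mock at 3, 6, 12 and 24 h. Lower were 7306, 7257, 6960 and 7238. VQ10 ran from 3.91 against 12 h to 6.86 against 3 h, JAV1 from 3.49 to 5.34, SIB1 from 2.21 to 4.53, VQ33 from 0.98 to 2.38, MKS1 from 0.48 to 2.13 and VQ4 from 0.75 to 1.52. The ASR3 value was -1.11 to -0.34, smaller in size than against 0 h. The mpk4 libraries of the 6 higher members lay outside the range of all 15 mock libraries, for VQ10 at 30.9 to 37.4 CPM against 0.132 to 3.58 CPM. The share of all genes for which this holds was not counted. The ASR3 libraries of mpk4 did not lie outside it, at 5.59 to 6.37 CPM in mpk4 against 6.20 to 25.5 CPM in mock. VQ29 had at most 0.102 CPM in mpk4 and 0.317 CPM in mock and was not tested.

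Other genes of the same pathway were taken from lists of 26 other VQ genes, of which 23 were tested in seedlings, 6 binding partners and 24 other reported MAP kinase substrates. After 30 min of 100 nM flg22, 13 of 23 VQ genes were higher and 1 lower, against 22.1% and 20.5% of all genes, with VQ12 at 8.08 ± 0.14, VQ3 at 7.66 ± 0.11 and VQ1 at 5.93 ± 0.11. Of the binding partners 4 were higher and 2 lower, with WRKY33 at 5.95 ± 0.08 and WRKY8, the VQ10 partner, at 1.80 ± 0.29. Of the substrates 17 were higher and 5 lower, with MYB15 at 8.62 ± 0.17. The medians were 1.097, 1.69 and 0.83, against -0.03 for all genes. At 5 min, when no member was called, 2 of 23 VQ genes were higher, VQ12 at 1.90 ± 0.26 among them, against 0.494% of all genes.

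In impk36 with pep3, 3 of 23 other VQ genes were higher and 10 lower than in WT, against 16.2% and 17.9% of all genes. VQ1 was lower by 3.11 ± 0.23 and VQ27 by 1.93 ± 0.18, and VQ3 was higher by 1.34 ± 0.23. No binding partner was higher and 2 of 6 were lower, WRKY33 by 1.63 ± 0.10 and WRKY8 by 1.24 ± 0.33. No substrate was higher and 12 of 24 were lower, among them the ethylene synthesis gene ACS6 by 2.09 ± 0.13. At 30 min of flg22 WRKY8 had a log2 fold change of -4.40 ± 0.47 in impk36, and its partner VQ10 one of -3.17. WRKY33 was lower there by 1.30 ± 0.13. Of the members tied to WRKY33, MKS1 was lower and SIB1 and SIB2 were higher. Whether partners move together was not tested. At 1 h of flg22 11 of the 24 substrates were higher and 9 lower, against 24.6% and 22.5% of all genes, with ERF104 higher by 2.00 ± 0.09 and MYB15 lower by 2.68 ± 0.15. In impk4 with pep3, 0 of 23, 0 of 6 and 0 of 24 were higher and 2, 2 and 4 were lower, against 1.5% and 4.23% of all genes.

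In mpk4 shoots 12 of 19 other VQ genes tested were higher than in untreated impk4 and 1 was lower, against 45.5% and 32.7% of all genes, with VQ28 at 8.85 ± 0.50. The binding partners gave 4 higher, WRKY51 at 4.14 ± 0.46 and WRKY8 at 2.51 ± 0.26 among them, and 1 lower, the sigma factor gene SIG1 at -3.04 ± 0.12. Of the substrates 15 were higher and 4 lower. The medians of the 3 lists were 1.098, 1.397 and 0.63, against 0.19 for all genes.

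Across the 49 groups, with each set centred on its own mean of log2(CPM + 1), the members most alike were MKS1 and VQ10 (Pearson r = 0.861), VQ4 and VQ10 (0.848) and MKS1 and VQ33 (0.824). For SIB1 and SIB2 the value was 0.0144. These correlations are a description, since groups share sets, controls and stimuli, and values for SIB2 include groups where it is listed at 0. Among 15900 genes with a mean of at least 5 CPM, WRKY70 was nearest to SIB1 (0.940) and SARD1 nearest to VQ33 (0.919). JAV1 was nearest to CCR3 (0.908) and then WRKY40 (0.907), VQ29 to ABR1 (0.896) and DIR5 (0.886), and VQ4 to TPP (0.959). The gene nearest to VQ10 was AT5G18490 (0.949), followed by WAKL10 (0.947), and MKS1 was nearest to AT4G39580 (0.953). For ASR3 the nearest was AT5G54660 (0.831) and for SIB2 it was CDPK9 (0.737), the lowest first-ranked value of the 9.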

How the data were processed

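Per the labels' protocols, RNA was extracted with Trizol and libraries were made with a TruSeq RNA v2 kit, which does not mark strand. The deposited values are raw read counts per locus, 1 file per library, made with TopHat, HTSeq and TAIR10 per the submitters' processing notes. Versions and settings are not given in the sources used here. Each file names 32678 loci, or 37336 in B4 and the adult experiment. Rows that name no gene were left out of library sizes. They held 5.38 to 42.4% (not uniquely placed), 0.829 to 2.30% (no feature) and 0.908 to 4.09% (ambiguous) of reads. Of 32005 shared loci 31726 matched the RefSeq annotation TAIR10.1, the source of names, coordinates and sequences.

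Each of the 6 sets (time course, B1 to B4, adult) was fitted alone, in R 4.3.3, using edgeR 4.0.16 with filterByExpr, TMM scaling, a separate mean for every group and two-sided robust quasi-likelihood F tests. P-values were adjusted by Benjamini-Hochberg over all genes of each of 61 comparisons, and standard errors derive from the F statistic. Between 20806 and 21543 genes were tested per set. Filtering left out VQ29 in B3, SIB2 in B4 and both in the adult set. The scripts were tested on simulated data. CPM values use TMM-scaled library sizes. Intervals and the floor of 3 counts over a group cover counting error only, since reads carry no molecular identifiers. With 3 libraries against 3 an exact permutation test cannot go below 0.1.

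The members and the lists were chosen with earlier results of these data known. Genes beside the members were named by rule. From each list came up to 3 genes per direction and comparison with adjusted p under 0.05, no overlap of libraries and an absolute log2 fold change not under 1. The 3 genes most correlated with each member, at a mean of at least 5 CPM, were ranked too. MPK3, MPK6, MPK4 and EHD1 were added as checks. Over 135 pairs of replicates no pair agreed within sampling noise.

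Replicate numbers were taken to pair libraries where every pair's deviations from the group means correlated above 0.1. This held in 4 of 55 comparisons with 3 pairs or more, impk36 with WT at 1 h of flg22, impk4 with WT after UVB, and impk36 with impk4 with ABA and after UVB. Alternatives were DESeq2 1.42.0, no filter, RLE scaling, only the groups compared, the replicate block and leaving out each library.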

Additional observations from a re-analysis of the deposited data

Results flagged for a closer look

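The results listed here are those where the response to a stimulus differed between a line and WT in a test of the difference itself, an interaction term over 6 stimuli and 2 lines. Values are the log2 response of the line minus that of WT, and more or less gives the sign of this value. With pep3, SIB1 responded more in impk36 than in WT by 1.73 ± 0.37 (adjusted p = 7.90e-04) and SIB2 by 0.95 ± 0.19, while VQ10 responded less, at -3.17 ± 0.92. The VQ10 call was lost without unstimulated impk36 library 2 of B1 (-2.70, adjusted p = 0.140). At 30 min of flg22, 3 members differed in impk36. SIB2, which fell in WT, stood at 0.67 ± 0.16, VQ10 at -3.62 ± 0.75 (adjusted p = 0.00115) and MKS1 at -0.98 ± 0.28. The MKS1 call was lost without any 1 of 4 libraries (-0.96 to -0.89).

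At 1 h of flg22, the members that responded more in impk36 were SIB1 at 1.81 ± 0.36 (adjusted p = 2.29e-04), JAV1 at 0.88 ± 0.17 and VQ33 at 0.56 ± 0.18. JAV1 was lower in impk36 than in WT of B2 without a stimulus, and after 1 h of flg22 it was not called between them. For SIB1 the values for pep3 and 1 h of flg22 exceed its differences between stimulated impk36 and WT. Its fitted unstimulated level was lower in impk36, though not called in B1 or B2. VQ33 lost the call without any 1 of 7 libraries (adjusted p up to 0.122). With wounding SIB2, which fell in WT, had a difference of 0.63 ± 0.16 in impk36, and VQ10 responded less, at -3.86 ± 0.93. The SIB2 call was lost without any 1 of 3 libraries (0.50 to 0.52), and the VQ10 call without unstimulated impk36 library 1 of B2 (-3.48, adjusted p = 0.0580), and was -4.78 without wounded impk36 library 3. In impk4, 1 member differed, JAV1 at 30 min of flg22, which responded less, at -0.79 ± 0.16 (adjusted p = 0.00149). The share of reads not uniquely placed was higher in impk36 than in the other lines of B2, at 13.4 to 16.5%, and its part in the B2 values was not tested.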

How the results depend on the processing

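No call of a member reversed under any alternative run. DESeq2 kept 517 of 525 member results on their side of the threshold, RLE scaling 528 of 529, no filter 525 of 529, the replicate block 517 of 529, only the groups compared 466 of 482 and leaving out 1 library 3659 of 3777. Among the last, 99 calls were lost and 19 gained. With the replicate block 12 were gained and none lost, and apart from MKS1 in impk36 at 1 h of flg22 no call changed in the comparisons taken as paired. Counts of called members that moved by over 1.5 times were few, and the cause was not tested. With no filter 3MBiP against DMSO gave 1 (2 in the main fit). For impk4 against WT, pep3 gave 2 with the replicate block (1), wounding gave 0 with only the groups compared (2), and H2O2 gave 2 with no filter, DESeq2 or only the groups compared and 3 with the block (1). Only the groups compared gave 2 for impk36 against impk4 with wounding (4), 1 for the wounding interaction of impk36 (2) and 2 for adults at 6 h (0). Leaving out 1 library gave 0 to 2 for 3MBiP, 1 to 3 for ABA, 1 to 2 and 1 to 3 for impk36 against impk4 with ABA and MeJA, 0 to 1 for impk4 unstimulated in B2, and 0 to 2, 2 to 4 and 1 to 2 for impk4 with H2O2, flg22 at 30 min and wounding. It gave 1 to 2 for the wounding interaction of impk36. Depth limits VQ29, and VQ10 before a stimulus, to a few counts per library.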

Other observations

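MKS1 and JAV1 lie on the same arm as EHD1, 0.647 and 0.741 Mb from it, and EHD1 had 1.05 to 2.83 CPM in impk4 seedlings, against 50.2 to 73.4 CPM in WT seedlings of B1 to B4. Within 1 Mb of EHD1, 0.464% of tested genes (2 of 431, of which 1 is EHD1 itself) were called between unstimulated impk4 and WT in B1, against 0.0722% elsewhere, and 16.9% in B2, against 16.6% elsewhere. With 2 Mb in place of 1 the shares within were 0.2398% and 16.95%. JAV1 was lower in impk4 in unstimulated B2 and MKS1 was called in neither set. Whether the neighbourhood of EHD1 has a part in the JAV1 values of impk4 was not tested.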
